A study of Mus musculus with 9 samples.

Results

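The loci of Myc and Myb, the genes of the transcription factors MYC and MYB, were followed in ATAC-seq peak lists of tumor-specific CD8 T cells. ATAC-seq marks open chromatin by the sites where the transposase Tn5 can cut. The peaks of all 9 lists were merged wherever they shared at least 1 base, which gave 62963 union regions on chromosomes 1 to 19 and X. A region belonged to a gene when it overlapped the gene body on mm10, or when the nearest end of any protein-coding gene was that gene's and lay within 100 kb. This chose 21 regions, 10 at Myc and 11 at Myb. Regions up to 2 Mb from Myc, and between Myb and its neighbour Hbs1l, were followed separately.

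P14 cells bear a transgenic T cell receptor for GP33-41 of lymphocytic choriomeningitis virus (LCMV) on H-2Db, and here they were taken as naive cells from TCF-1-GFP reporter P14 mice. They were given to C57BL/6 mice 8 days after B16.F10 melanoma cells that express the LCMV glycoprotein, and were sorted from the tumor-draining lymph nodes as CD45.1+CD44+CD8 T cells on day 4 (D4), 8 (D8) or 21 (D21) after transfer. Each day had 3 libraries of 50000 cells and 1 peak list per library, and all 3 groups share the donor genotype, the host strain and the tumor line. Cells of hosts without a tumor and naive cells were not analysed here. Whether separate animals gave the 3 libraries of a day is not stated in the labels, so the spread and the p-values below describe these lists and may be technical.

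MYC is a transcription factor that pairs with MAX on E-boxes and drives growth, ribosome production and metabolism when T cells are activated. Its gene stands almost alone among protein-coding genes and is controlled by enhancers spread far to both sides, among them elements within the long noncoding RNA gene Pvt1, an element that responds to NOTCH in mouse thymocytes and a cluster of blood cell enhancers further out. MYB is a transcription factor of blood progenitors and thymocytes that in mouse CD8 T cells has been tied to the stem-like memory state, with Tcf7 among the genes it activates and Zeb2 among those it represses; enhancers of Myb lie upstream of it, toward Hbs1l.

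The sequence just upstream of Myb is shown because a region called at its start covers the whole of it. It runs from the far end to the gene start, 250 bases at chr10:21160985-21161234 on the minus strand, as given by RefSeq for GRCm38.p6, the assembly of mm10:
Myb upstream: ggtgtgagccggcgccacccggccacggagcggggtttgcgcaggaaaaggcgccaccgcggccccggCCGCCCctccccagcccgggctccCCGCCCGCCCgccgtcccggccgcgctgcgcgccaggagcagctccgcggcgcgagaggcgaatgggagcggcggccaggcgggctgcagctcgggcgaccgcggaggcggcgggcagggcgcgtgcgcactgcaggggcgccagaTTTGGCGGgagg

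Capitals mark matches to 2 motifs searched on both strands, the E2F site TTTGGCGG and the GC box GGGCGG, here on the opposite strand as CCGCCC. The E2F site begins 12 bases before the gene start and was found once. Among the upstream windows of 32851 promoters in the RefSeq table, 0.444% held it. The GC box occurred 3 times, at 182, 158 and 154 bases before the start, the last 2 overlapping each other, and 32.7% of windows held it. The E-box CACGTG, held by 6.02% of windows, and the MYB site AACNG, held by 74.2%, were not found in these letters. G and C made up 81.2% of the bases, against a median of 52.4% over all windows.

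The D4 lists were far shorter than the later ones, which bears on every comparison with D4. They called 17979 to 20708 regions each, the D8 lists 45564 to 49043 and the D21 lists 44517 to 50090. No list gives its read total. The lowest local background of a list, which scales with its reads, was 2.62 to 3.38 tags on D4, 2.14 to 2.63 on D8 and 2.33 to 3.08 on D21. Where all 9 lists called a region, which was so at 15109, the peaks had a median fold enrichment of 5.70 to 5.75 on D4, 8.93 to 9.01 on D8 and 8.65 to 8.86 on D21. Markers of CD8 T cells were called in every list, with 22 to 30 of their 85 regions on D4, 62 to 65 on D8 and 62 to 70 on D21. Markers of other cells also had more regions called on the later days. B cell markers had 0 to 1 of 14 regions on D4, 10 to 11 on D8 and 9 to 13 on D21, and stromal and endothelial markers had 1 to 2 of 33, 20 to 21 and 18 to 23 on the same days. CD4 T cell markers had 1 to 2 of 8 regions on D4 and 6 to 8 on the later days, NK cell markers 4 to 6 of 10 and then 7 to 8, myeloid markers 1 to 2 of 8 and then 6 to 7, and melanoma markers 4 to 6 of 13 and then 8 to 12. Foxp3, Ms4a1, Lyz2, Tyr and Sox10 were at 0 in every list. The part of these regions, and of cells other than P14 cells, in the results below was not tested.

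At Myc, 1 of the 10 regions (10%) was called in all 9 lists, beside 24.0% of all regions, and it lay over the gene start. This region, chr15:61984897-61985709, reaches into the first bases of the gene body at chr15:61985341-61990361. The fold enrichment of a peak is its summit pileup over the library's own local background, with 1 tag added to each. As the authors' peak caller gave it, the fold of this region was 3.70, 3.13 and 3.27 in the D4 lists, 4.02, 4.49 and 3.78 on D8 and 3.63, 4.15 and 3.99 on D21. The start of Myc was thus open on every day, with a low fold in every list: among all regions called everywhere, 0.53% to 4.69% had a lower fold in the same list.

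The low fold at the Myc start came with a summit of ordinary height and a high background. The summit pileup, recovered from the fold and the p-value of the peak, was 29, 23 and 30 tags on D4, 53, 67 and 62 on D8 and 50, 54 and 66 on D21. These heights stood at percentiles 26.8 to 52.2 of the regions called everywhere. The local background under the summit was 7.10, 6.66 and 8.48 tags on D4, 12.4, 14.1 and 15.7 on D8 and 13.04, 12.3 and 15.8 on D21, which put it at percentiles 91.3 to 97.4. The pileup relative to the median of such regions was 0.79 to 0.97 on D4, 0.87 to 1.02 on D8 and 0.78 to 0.88 on D21, so that the days overlapped on this scale. The peak itself spanned 200 to 443 bases on D4, 754 to 792 on D8 and 724 to 796 on D21, without overlap between D4 and the later days. The mean width over all peaks of a list was 463 bases on D4, 506 on D8 and 516 on D21. Whether the regions called everywhere widened alike was not tested.

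By rank within its list, the place of the Myc start depended on whether list length was counted. As a share of the list's peaks from the strongest down, it stood at 67.4% to 91.7% on D4, 33.1% to 43.3% on D8 and 40.4% to 52.7% on D21, so relatively higher in every later list than in any D4 list. Its absolute rank was 13376, 17890 and 16727 by p-value in the D4 lists, 20580, 15916 and 21898 on D8 and 24800, 20139 and 20877 on D21. When each list was cut to its 18524 strongest peaks, the region was called in 3 of 3 lists on D4, 1 of 3 on D8 and 0 of 3 on D21. At that length it counted as lost on D21 against D4, as did 0.57% of all regions. It was the one member lost under any setting tried.

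**Figure D1:**
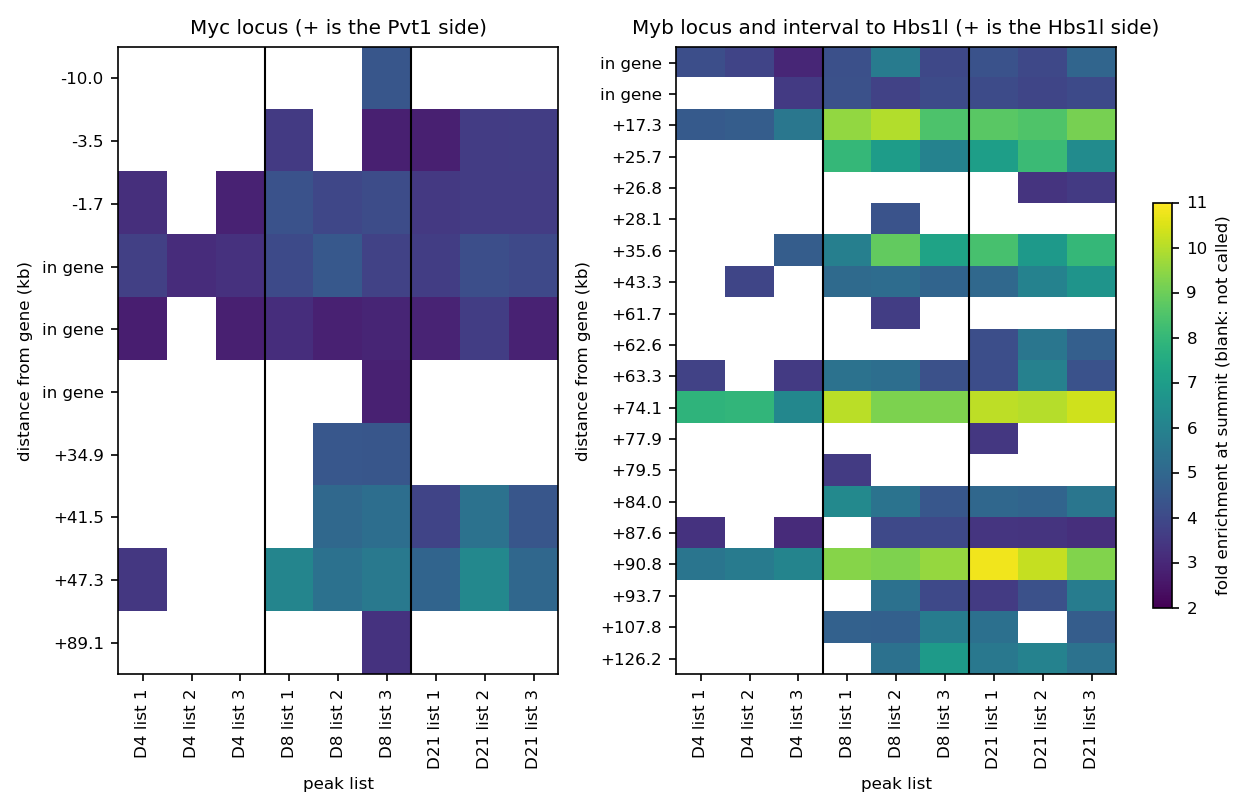
Fold enrichment of the peak in each region (rows, by distance in kb from the gene, with the neighbour's side as positive) and each of the 9 lists (columns, D4, D8 and D21), for the Myc locus (left) and for the Myb locus with the rest of the interval to Hbs1l (right). White cells were not called. The Myc start is filled in all 9 lists at 3.13 to 4.49, and 3 rows of the Myc panel are filled in D8 list 3 alone.

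Around the start, regions upstream and within the Myc body were almost as often called. The region 1685 bases upstream was missing in D4 list 2 alone and had a fold of 3.22 and 2.87 on D4, 3.90 to 4.26 on D8 and 3.51 to 3.61 on D21. The region chr15:61986747-61987482 inside the gene was likewise missing in D4 list 2 alone, with a fold of 2.76 to 3.62 elsewhere. A second region inside the gene, chr15:61987876-61988090, was called in D8 list 3 alone, with a fold of 2.83. D8 list 3 was the only list that called all 10 Myc regions, and it alone called 3 of them, the 2 others 10.0 kb upstream and 89.1 kb into the Pvt1 side. Another, 34.9 kb out on the Pvt1 side, was called in D8 lists 2 and 3.

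The Myc regions that were gained lay on both sides of the gene. Gained here means 3 of 3 lists calling the region on the later day and none on the earlier day, and lost means the reverse. On D21 against D4 these were chr15:61981534-61981796, 3545 bases upstream, with a fold of 2.79, 3.59 and 3.63 on D21, and chr15:62031895-62032507, 41.5 kb out on the Pvt1 side, with 3.84, 5.4 and 4.42. Both were also called in 2 of 3 D8 lists, so the 2 of 10 on D21 against D4, where 25.3% of all regions were gained, stood beside 0 of 10 on D8 against D4, where 25.7% were. None of the 10 was gained on D21 against D8, where 1.02% of all regions were. None was lost in any comparison, beside 0.00953% of all regions on D8 against D4, 0.00794% on D21 against D4 and 1.09% on D21 against D8.

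The widest Myc region, chr15:62037673-62039297 with 1625 bases, covers the start of Pvt1, which makes a long noncoding RNA. It was called in D4 list 1, with a fold of 3.46 and a pileup of 12 tags, and in no other D4 list. On D8 the fold was 6.11, 5.34 and 5.64 and on D21 it was 4.90, 6.20 and 5.02, above the D4 value in all 6 later lists. The median fold of the regions called everywhere was likewise above its D4 values in all 6. In D4 list 1 the peak ranked 19668 of 19854. With a stricter threshold of −log10 q of at least 3, the region was gained on both later days, as were 25.8% of all regions on D8 and 25.5% on D21 against D4.

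At Myb, 2 of the 11 regions (18.2%) were called in all 9 lists, beside 24.0% of all regions. The first lies inside the gene, at chr10:21158184-21159402 within the body at chr10:21124930-21160984, and with 1219 bases it is also the widest of the locus. Its fold was 4.15, 3.85 and 2.95 on D4, 4.19, 5.74 and 3.94 on D8 and 4.28, 3.95 and 4.92 on D21, so that the days overlapped. Its peaks widened to 946 to 1151 bases on D8 and 958 to 1208 on D21, against 238 to 373 on D4. As for the Myc start, the widening was not compared with that of the other regions called everywhere.

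The region over the Myb start was not called everywhere. This region, chr10:21160827-21161464, holds the whole upstream sequence printed above. It was called in 1 of 3 D4 lists, list 3, with a fold of 3.54, and in all 6 later lists, with 4.22, 3.76 and 4.07 on D8 and 4.05, 3.88 and 4.04 on D21. The fold was close to that of the Myc start, while the local background was lower, at 6.06 tags in D4 list 3, 7.54 to 10.1 on D8 and 8.28 to 9.90 on D21. The summits fell at 21160978 to 21161033, at the boundary between gene and upstream sequence.

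The strongest Myb region lay 17.3 kb upstream of the gene, at chr10:21178279-21179171, and was called in every list; it was named after its values were seen. Its fold was 4.55, 4.64 and 5.58 on D4, 9.54, 9.96 and 8.49 on D8 and 8.70, 8.53 and 9.14 on D21. Every later list stood above every D4 list, as did the medians of the regions called everywhere. Relative to the median pileup of those regions, the summit stood at 0.59 to 0.67 on D4, 0.74 to 0.83 on D8 and 0.67 to 0.69 on D21, so the D8 lists remained above the D4 lists on that scale and the D21 lists lay next to the highest D4 list. The fold percentile among those regions was 20.98 to 47.5 on D4, 43.5 to 64.1 on D8 and 44.8 to 57.9 on D21, with the D4 and later ranges overlapping. These peak values are descriptions of each list and were not tested.

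**Figure D2:**
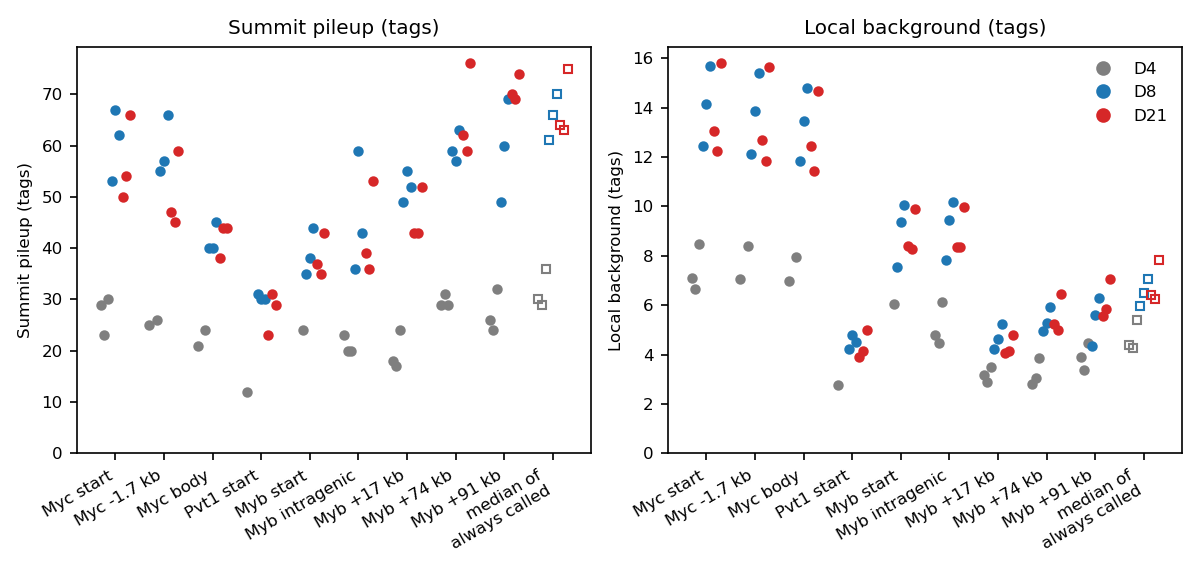
Summit pileup (left) and local background (right), in tags, at 9 regions of the Myc and Myb loci and the interval to Hbs1l, with the median over the regions called in all 9 lists at the far right (open squares). Each point is 1 list, coloured by day. The Myc start, its upstream region and its body region have a background of 6.66 to 15.8 tags, above the medians of 4.28 to 7.84, while the pileup relative to the median is 0.78 to 1.02 at the start, 0.71 to 0.94 upstream and 0.59 to 0.70 in the body.

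Further upstream of Myb, 1 region was gained on D8 against D4 and another on D21 against D8. The first, chr10:21186649-21187082, lies 25.7 kb from Myb within the noncoding gene Gm33619. It had a fold of 7.98, 6.98 and 6.01 on D8 and 7.04, 8.14 and 6.34 on D21 and no call on D4, and it made 1 of 11 Myb regions, against 25.7% of all regions. The second, chr10:21223562-21224032, lies 62.6 kb from Myb within Gm33671 and was called in all 3 D21 lists, with a fold of 4.15, 5.53 and 4.71, and in no other list. It made 1 of 11 against 1.02% of all regions. A region called in 8 of 9 lists lies right beyond it. Both regions were gained on D21 against D4, 2 of 11 against 25.3% of all regions, and no Myb region was lost.

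The other Myb regions were called mostly on the later days. Those at 35.6 kb and 43.3 kb were called in 1 of 3 D4 lists each, list 3 with a fold of 4.66 and list 2 with 3.87, and in all later lists, with a fold of 5.90 to 8.82 and 4.91 to 6.66. The regions at 28.1 kb and 61.7 kb were called in D8 list 2 alone, and that at 26.8 kb in D21 lists 2 and 3. The Myb body showed no region besides the 2 described.

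Beyond the midpoint of the 135 kb between Myb and Hbs1l, regions belong to Hbs1l by the rule although the same interval holds them. The interval held 18 regions, 9 on each side of the midpoint. A pair on the Hbs1l side was called in every list and reached the highest folds of the interval, at 74.1 kb and 90.8 kb from Myb. The region chr10:21235130-21235860 had a fold of 7.85, 7.92 and 6.17 on D4, 10.1, 9.24 and 9.25 on D8 and 10.1, 10.00 and 10.4 on D21. The region chr10:21251833-21252609 had 5.51, 5.73 and 6.04 on D4, 9.36, 9.24 and 9.59 on D8 and 10.8, 10.2 and 9.31 on D21. Each later list was above each D4 list in both, as were the median folds of the regions called everywhere. Relative to the median pileup of those regions, the first overlapped between days, at 0.81 to 1.07, 0.86 to 0.97 and 0.94 to 1.01 on D4, D8 and D21. The second stood at 0.80 to 1.10 over all lists, with its lowest value in a D8 list. Both regions were named after their values were seen. Of the 18 regions of the whole interval, 3 were gained on D8 against D4, beside 25.7% of all regions, 5 on D21 against D4, beside 25.3%, and 1 on D21 against D8, beside 1.02%.

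Counted per list, both loci had more called regions on the later days. The Myc locus had 4, 1 and 3 regions in the D4 lists, 5, 6 and 10 on D8 and 6 in each list on D21. The Myb locus had 3, 3 and 5 on D4, 7, 9 and 7 on D8 and 8, 9 and 9 on D21. Every later list lay above every D4 list at both, which held for 80.6% of all tested genes on D8 against D4 and 78.6% on D21 against D4. The D21 lists overlapped with the D8 lists at both.

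The exact permutation test over the 20 arrangements of 3 against 3 lists cannot give a two-sided p below 0.1, and it gave that value for D8 and for D21 against D4 at both loci. Means were 7 ± 2.65 regions on D8 and 2.67 ± 1.53 on D4 at Myc, and 7.67 ± 1.15 on D8 and 3.67 ± 1.15 on D4 at Myb (SD, n = 3 lists each). On D21 against D8 the differences were −1 region at Myc (exact p = 1) and 1 region at Myb (exact p = 0.4). In bases covered by peaks, Myc had 3488 ± 755 on D8 and 746 ± 473 on D4, and Myb had 4357 ± 408 on D8 and 1167 ± 366 on D4, both at the smallest exact p of 0.1. The whole D8 lists covered 24.7 Mb on average and the D4 lists 9.52 Mb, a ratio of 2.60.

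Relative to list length, neither locus differed past the threshold. Per 1000 regions called in the list, Myc had 0.148 ± 0.050 on D8 and 0.139 ± 0.081 on D4 (exact p = 1), and Myb had 0.164 ± 0.028 on D8 and 0.190 ± 0.044 on D4 (exact p = 0.5). A limma fit over 7834 protein-coding genes with at least 3 union regions, on the log2 of regions called relative to the list total, gave a log2 difference for Myc of 0.03 ± 0.20 (SE) on D8 against D4 (adjusted p = 0.920), −0.11 ± 0.20 on D21 against D4 (adjusted p = 0.696) and −0.14 ± 0.20 on D21 against D8 (adjusted p = 0.991). Myb had −0.31 ± 0.17 on D8 against D4 (adjusted p = 0.151), −0.12 ± 0.17 on D21 against D4 (adjusted p = 0.603) and 0.19 ± 0.17 on D21 against D8 (adjusted p = 0.991).

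For all tested genes the median difference was −0.14 on D8 against D4, −0.15 on D21 against D4 and 0.01 on D21 against D8. In this fit 13.1% of genes were higher and 20.3% lower on D8 against D4, 12.5% higher and 19.1% lower on D21 against D4, and 0.166% higher and 0.0255% lower on D21 against D8. The number of union regions bounds the difference: with all of its regions called in every D8 list, Myc would have reached 0.57 and Myb 0.20 on D8 against D4.

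The calls for both genes depended on the scale and, for Myc, on 1 list. Without division by list totals, Myc had 1.33 and Myb 1.00 on D8 against D4, and Myc 1.18 and Myb 1.17 on D21 against D4, all past the threshold (limma, adjusted p at most 9.79e-07). With a pseudocount of 1 in place of 0.5, Myb was lower on D8 against D4 (−0.39, adjusted p = 0.0276, limma), and without D4 list 2 Myc was lower on D21 against D4 (−0.54, adjusted p = 0.0224, limma). On the strongest peaks, Myc had 2, 1 and 1 regions on D4, 0, 1 and 0 on D8 and 0 in each D21 list, and its difference on D8 against D4 was −1.38 ± 0.83 (adjusted p = 0.650, limma). Myb had 3, 2 and 3 on D4, 2, 3 and 1 on D8 and 2 in each D21 list, with a difference of −0.49 ± 0.26 (adjusted p = 0.519, limma).

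**Figure D3:**
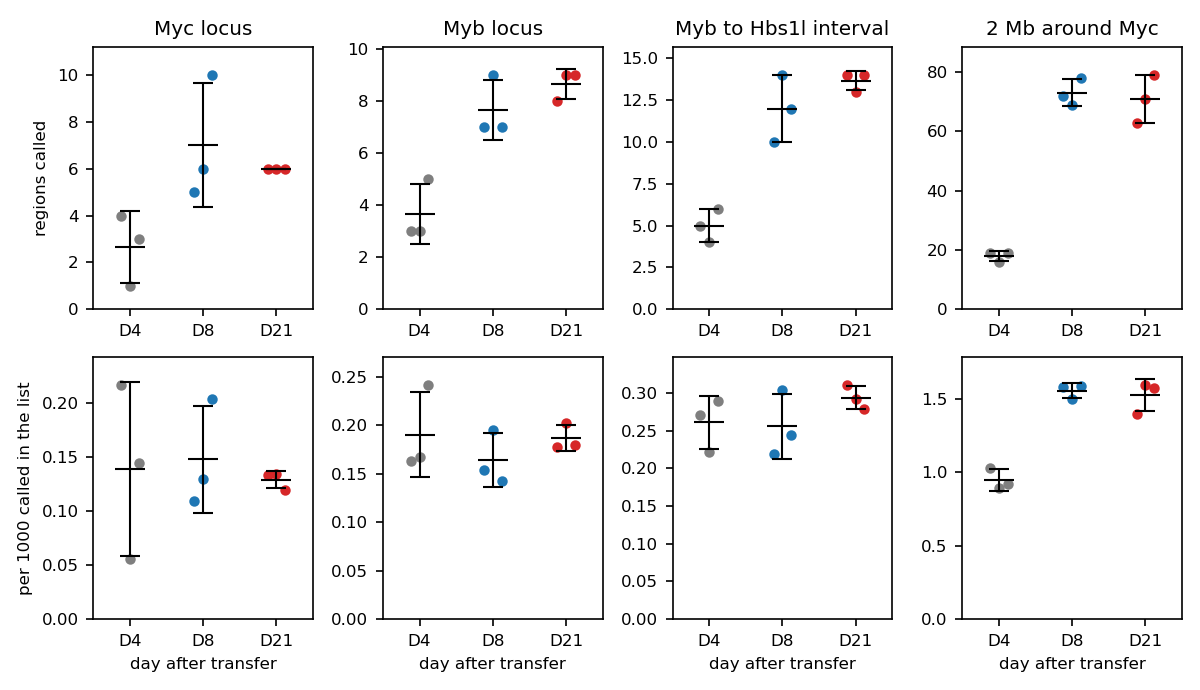
Regions called per list (top) and the same per 1000 regions called in the list (bottom) for the Myc locus, the Myb locus, the interval between Myb and Hbs1l and 2 Mb on each side of Myc, by day. Points are lists and bars show the mean and SD of 3 lists. The later days stand above D4 in every top panel, and in the bottom row only in the panel of 2 Mb around Myc.

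In the wider surroundings of Myc, up to 2 Mb on each side, open regions were 4.06 times as many on D8 as on D4, and 2.46 times as many in the whole lists. The window held 108 regions, of which 19, 16 and 19 were called in the D4 lists, 72, 69 and 78 in the D8 lists and 63, 71 and 79 in the D21 lists. No D4 list came near the later ones. The means were 18 ± 1.73 on D4, 73 ± 4.58 on D8 and 71 ± 8 on D21 (SD, n = 3 lists each), and each later day against D4 had the smallest exact p of 0.1. Per 1000 regions called in the list there were 0.946 ± 0.074 on D4, 1.56 ± 0.05 on D8 and 1.52 ± 0.11 on D21, and again no later list overlapped with D4 (exact p = 0.1 for both). On the strongest peaks the difference on D8 against D4 had the other sign, −1.33 regions (exact p = 0.5).

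Of the 108 regions, 32 were gained on D8 against D4 and 32 on D21 against D4, or 29.6% beside 25.7% and 25.3% of all regions. None was gained on D21 against D8, and none was lost in any comparison. Called in all 9 lists were 13, or 12.04% beside 24.0% of all regions, among them the Myc start with the lowest median fold, 3.78. The 5 with the highest median fold were chr15:60187046-60187927, 1797 kb away on the side opposite Pvt1, with 11.3, chr15:61546575-61547038, 438 kb away on that side, with 10.4, chr15:60141524-60142172 with 9.39, chr15:62181278-62182036 within Pvt1 with 7.30 and chr15:60119880-60120544 with 6.79. Each of these medians exceeded the highest fold of any peak within 100 kb of Myc, 6.20.

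By stretch, called regions were dense on the Pvt1 side near the gene and absent from a long stretch further out. Within the body of Pvt1, 6 regions were called in each D4 list, 14, 15 and 16 on D8 and 15, 15 and 16 on D21, of 17 in all. Of these, 5 were called everywhere, beside 24.0% of all regions, and 7 were gained on D8 against D4, beside 25.7%. The stretch from 0.5 to 1.2 Mb on that side had 0, 0 and 1 regions on D4, 9, 10 and 10 on D8 and 9, 11 and 11 on D21. On the side opposite Pvt1, the stretch from 0.1 to 1 Mb had 2, 1 and 1 regions on D4, 15, 11 and 14 on D8 and 12, 16 and 18 on D21. In neither stretch did D4 overlap with a later day. Every later list also lay above every D4 list for 80.6% of all tested genes on D8 and 78.6% on D21. Gained on D8 against D4 were 6 of 14 and 8 of 23 regions in the 2 stretches, beside 25.7% of all regions. With so few D4 calls, most of these regions are in the union through the later lists.

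No list called a region from 1.13 to 1.61 Mb beyond Myc on the Pvt1 side. This stretch of 478 kb includes the window from 1.2 to 1.3 Mb in which the NOTCH-dependent enhancer of mouse thymocytes is expected. Of the 62943 stretches between neighbouring regions in the genome, 1.22% were at least as long. That share counts stretches and not bases, and long stretches hold more of the genome than their number shows. The stretch was picked as the longest within 2 Mb of Myc, where the next longest spanned 383 kb. A stretch without peaks shows that none passed the peak threshold there, not that the chromatin was closed.

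The window from 1.6 to 1.8 Mb, where the cluster of blood cell enhancers is expected, was called in part. It held 6 regions, with 0 in each D4 list, 4, 2 and 3 on D8 and 2, 3 and 4 on D21. The region chr15:63652421-63652875, 1.66 Mb from Myc, was called in all 3 D8 lists and 2 D21 lists, and chr15:63611156-63611518, 1.62 Mb away, in all 3 D21 lists and 1 D8 list. Neither was called on D4. Of the 6 regions, 1 was gained on D8 and 1 on D21 against D4, beside 25.7% and 25.3% of all regions. With a median fold of 4.89 and 4.16, they were weaker than the regions called everywhere other than the Myc start.

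**Figure D4:**
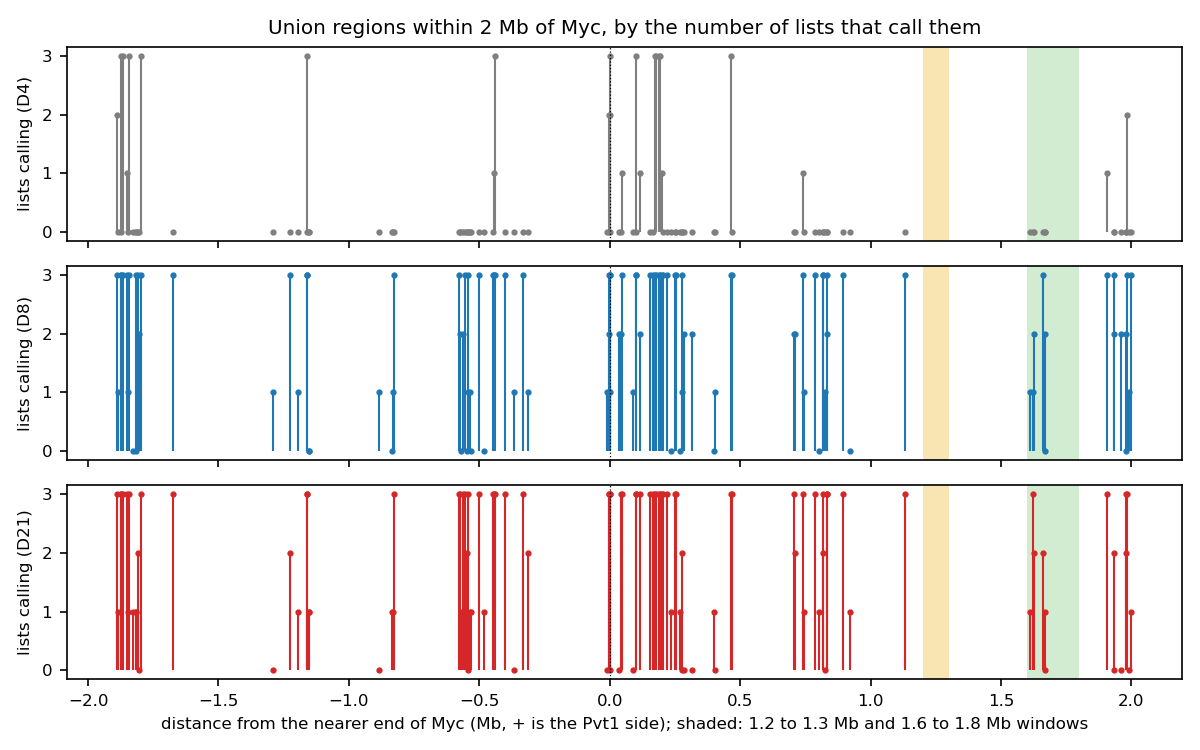
Each of the 108 regions within 2 Mb of Myc by distance from the nearer end of the gene in Mb (x, positive toward Pvt1) and by the number of the day's 3 lists that call it (y), for D4, D8 and D21. The shaded windows lie at 1.2 to 1.3 Mb, with no region in any list, and at 1.6 to 1.8 Mb, with 0 regions in each D4 list and 2 to 4 in each later list.

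The genes of proteins that work with MYC were counted in the same way. The lists were chosen with earlier results of these data known. In the MYC family and MAX network, 9 of 12 genes had enough regions, and on D8 against D4 none was higher (1 at an unadjusted p under 0.05, limma) and 3 were lower relative to the list totals (median −0.33, all genes −0.14), against 13.1% and 20.3% of all genes. At the unadjusted p, 16.3% of all genes were higher. Mycl, a MYC relative, and Mnt and Mxi1, which compete with MYC for MAX, made up the 3, at −1.18, −1.06 and −0.50. Mlxipl, of the same extended network, did not pass at 0.64 (adjusted p = 0.0755, limma). Max, the partner of MYC and named after its values were seen, had 10 regions in each D8 list and 3.67 ± 0.58 on D4, a difference of 0.04 ± 0.16 (adjusted p = 0.857, limma). Among cofactors and turnover factors, 1 of 11 was higher and 2 were lower (median −0.36), close to the 13.1% and 20.3% of all genes. Bin1, whose product binds MYC, was the higher one (8 ± 1.73 regions on D8, 2 ± 1 on D4, 0.53 ± 0.18, adjusted p = 0.0147, limma), and Wdr5, a chromatin cofactor, and Cdk9, an elongation kinase, were the lower ones, both at −1.14. Pim1, a kinase of activated lymphocytes, did not pass, with −0.41.

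Among MYC target genes, none of the 11 tested was higher on D8 against D4 (1 at an unadjusted p under 0.05, limma) and 3 were lower (median −0.24), against 13.1% and 20.3% of all genes. These were Odc1 of polyamine synthesis, Ldha of glycolysis and the nucleolar Fbl, at −0.67, −0.73 and −0.98. Tfap4, a factor that MYC induces in activated T cells, did not pass on D8 (0.48, adjusted p = 0.113, limma). It was higher on D21 against D4 (0.58, adjusted p = 0.0465, limma), as were 12.5% of all genes. There 5 of its 7 regions were called in each D21 list and 1 in each D4 list. With so few D4 calls, most of its regions are in the union through the later lists, which favours a higher call.

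For MYB, 1 of 7 tested partners was higher on D8 against D4 and 2 were lower (median −0.12), against 13.1% and 20.3% of all genes. Hipk1, a kinase, was higher at 0.56, and Lin54, of the MuvB complex that binds the MYB relative B-MYB, and Men1, the gene of menin, were lower at −0.67 and −1.18. Of 6 tested MYB targets, 2 were higher and 3 lower (median −0.34), against the same shares of all genes. Zeb2, a factor of terminal effector cells, had 9 ± 0 regions on D8 and 1.67 ± 1.15 on D4 (0.95 ± 0.19, adjusted p = 1.08e-05, limma), and Kit, a growth factor receptor gene of progenitors, had 4.67 ± 0.58 on D8 and 0.333 ± 0.577 on D4 (1.53 ± 0.29, adjusted p = 2.23e-06, limma). With so few D4 calls, Kit reached the 3 union regions needed for the fit only through the later lists, which favours a higher call. Bcl2, the survival gene, Tcf7, the gene of TCF-1, and Gata3 were the lower ones, at −0.48, −0.54 and −0.72. Bcl2 had 16.3 ± 1.5 of 27 regions on D8 and 9 ± 1 on D4.

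All 13 genes called lower in these 5 lists had more regions on D8 than on D4, and 12 of them would have come out lower even with every union region called on D8, Bcl2 being the exception. On D21 against D4, 12 were lower, of which 9 had more regions on D21, 3 had equal numbers and 11 were bound to come out lower. On D21 against D8, none of the 44 tested members passed in either direction, beside 0.166% of all genes higher and 0.0255% lower, and 3 of the 44 had an unadjusted p under 0.05, beside 5.41% of all genes (limma).

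The genes whose calls ran most like those of Myc and Myb were ranked over the 9 lists among 3145 genes with at least 6 regions, by the Euclidean distance between the shares of a gene's regions called in each list. For Myc these were Fbxw7, Slit3 and Elf2 at 0.298, Lhx9 at 0.301 and Ubtd2 at 0.305. Fbxw7 had 2 regions in each D4 list, 6, 7 and 10 on D8 and 6 in each D21 list, of 11. For Myb they were Igf2r at 0.123, Tespa1 at 0.147, Itm2b at 0.168, St6galnac3 at 0.179 and Thada at 0.185. Igf2r had 4, 3 and 6 of 13 regions on D4, 9, 11 and 9 on D8 and 10, 10 and 11 on D21. The nearest genes stood closer to Myb than to Myc, where 1 region in D4 list 2 and 10 in D8 list 3 made the pattern uneven.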

How the data were processed

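The deposited values were 1 narrowPeak list per library on mm10, with a score, a fold ratio at the summit, −log10 p-values and q-values and a summit position per peak, as the authors' peak caller wrote them. The tools named per the submitters' processing notes are MACS2, deepTools 2.0, Picard and BWA 0.7.15, in roles and with settings not given in the sources used here. Days came from the sample titles, since the genotype and time point tags carry each other's values.

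The 353295 peaks of chromosomes 1 to 19 and X were merged, and a list called a region when a peak shared at least 1 base with it. Summit pileup and local background were recovered under the Poisson formula of MACS2 for at least 99.995% of peaks per list (tolerance 0.001 in −log10 p). Gene positions came from 21627 protein-coding genes of RefSeq for GRCm38.p6.

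limma 3.58.1 (R 4.3.3; trend, robust, 1 term per day, all 9 lists, 6 residual degrees of freedom) was fitted to log2((regions called + 0.5) / relative list total), with each gene's residual SD raised to at least that of 1 region called with a probability of 0.5, and Benjamini-Hochberg adjustment at 0.05. The fit was tried on simulated lists for losses on D21 against D8 only, which leaves the comparisons with D4 unexamined. Counts and bases at a locus were compared by exact permutation tests. Counts per 1000 regions called were added after the data were seen. Regions with coordinates in the text are those at a member's body or ends, gained or widest, and around Myc the 5 strongest of those called in every list and those gained in the enhancer windows, with the strongest Myb region and 2 on the Hbs1l side added after their values were seen; genes of lists are those that passed and a few with large differences that did not, with Max added likewise. Members and lists were chosen with earlier results of these data known. Lists of a day shared regions at a Jaccard index of 0.744 to 0.794, so none was a copy of another. Lists of different days were at 0.356 to 0.760. Squared differences in summit pileup were also scaled so that independent counts give about 1 per region called everywhere. They were 0.417 to 0.444 within a day and 0.965 to 1.19 between days, so lists of a day were closer than independent counts. The reason was not tested. scipy 1.17.1, numpy 2.4.6 and pandas 2.3.3 under Python 3.11.15 served for the rest, with matplotlib 3.10.9 for figures. The alternatives tried were a stricter q, lists of equal length, a wider overlap, 50 kb, no division, other pseudocounts and minimums, no floor, a replicate block and leaving out each list.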

Additional observations from a re-analysis of the deposited data

How the results depend on the processing

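Under the alternatives other than leaving out a list, 178 values kept their direction and side of the threshold, or a count of similar size. Another 23 reversed, 2 newly passed the threshold and 43 counts changed in size. With 1 list left out, these numbers were 188, 10, 1 and 17. The exact permutation tests cannot give a p below 0.1, so their values could not change side, and only their direction was at stake. The others follow, and the cause was not tested for any of them.

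On the strongest 18524 peaks of each list, the differences in regions called were −1 at Myc on D8 against D4, −1.33 at Myc on D21 against D4, −0.67 at Myb on D8 and on D21 against D4, and −1.33 on D8 against D4 and 2 on D21 against D8 within 2 Mb of Myc. The differences in bases were −122.3 (D8 against D4) and −380.3 (D21 against D4) at Myc and −221.3 (D21 against D8) at Myb, and the log2 difference of Myc on D8 against D4 was −1.38. Among all genes, 100 were higher and 72 lower on D8 against D4, 84 and 45 on D21 against D4, and 46 and 21 on D21 against D8. At this length 0 regions were gained at either locus in any comparison, and 1 Myc region was lost on D21 against D4. Per 1000 regions called, chosen after seeing the data, the differences were −0.00986 at Myc and −0.00383 at Myb on D21 against D4, and −0.0265 at Myb and −0.0052 in the interval to Hbs1l on D8 against D4.

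Without division by list totals, the log2 differences were 1.33 (Myc) and 1.00 (Myb) on D8 against D4 and 1.18 (Myc) and 1.17 (Myb) on D21 against D4, with 6276 genes higher and 1 lower on D8, 6165 and 0 on D21 against D4, and 1 lower on D21 against D8. With a peak required to cover at least 0.5 of a region, Myb had 0.72 on D8 and 0.90 on D21 and Myc 0.15 on D21, all against D4. Genes higher then numbered 618 on D8 and 598 on D21 against D4, none passed in either direction (0 higher, 0 lower) on D21 against D8 (limma), and 5 (D8 against D4) and 6 (D21 against D4) Myb regions and 1 Myc region (D8 against D4) were gained. With a pseudocount of 1, Myc had −0.13 and Myb −0.39 on D8 against D4, and genes higher and lower numbered 658 and 2759 on D8, 652 and 2736 on D21 against D4, and 10 lower on D21 against D8. At least 6 regions per gene gave 626 higher and 574 lower on D8, 626 and 513 on D21 against D4, and 5 and 0 on D21 against D8. At least 1 region gave 5843 and 5863 lower on D8 and D21 against D4, and 1 lower on D21 against D8. Within 50 kb, Myc had −0.021 on D8 against D4, 4 genes were lower on D21 against D8, and Myb gained 1 region on D21 against D4 and 0 on D21 against D8. At −log10 q of at least 3, Myc had 0.16 on D21 against D4 and gained 1 region on D8 against D4. Without the floor on the spread, 0 genes were higher on D21 against D8.

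With a replicate block, 0 genes were lower on D21 against D8, and no call of Myc or Myb changed. Lists with the same number correlated at −0.029 to 0.061 in their deviations from the day means, and lists with different numbers at −0.041 to 0.021. Between D8 and D21 the same-numbered pairs, at 0.021 to 0.061, lay above the different-numbered ones, at −0.041 to 0.011. Whether lists of the same number share an origin was not tested. Leaving out 1 list at a time gave differences on D21 against D8 of −2 to 0.5 regions and −564.8 to 186.7 bases at Myc, and −6 to 2 regions within 2 Mb. The log2 differences of Myc were −0.40 to 0.37 on D8 against D4, −0.54 to 0.24 on D21 against D4 and −0.31 to 0.10 on D21 against D8, and those of Myb −0.21 to 0.035 on D21 against D4. Genes higher on D21 against D8 numbered 1 to 23 and lower 0 to 8, and genes lower on D21 against D4 numbered 979 to 1407.

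The lists hold peaks past a threshold and no read totals, so a region without a call is not shown to be closed. The lowest local background, which scales with reads, was 2.62 to 3.38 tags on D4, 2.14 to 2.63 on D8 and 2.33 to 3.08 on D21. The median summit pileup at regions called everywhere was 29 to 36 tags on D4, 61 to 70 on D8 and 63 to 75 on D21. The part of read depth in the short D4 lists was not tested. Read depth itself was not analysed here.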

Other observations

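The protein-coding neighbours of both genes did not share 1 course. Of 8 tested neighbours, 4 were higher on D8 against D4 relative to the list totals and 1 was lower (limma, adjusted p under 0.05), against 13.1% and 20.3% of all genes. Asap1, beyond the gasdermin genes on the Pvt1 side of Myc, had 28.3 ± 3.1 of its 38 regions on D8 and 5.67 ± 1.15 on D4 (log2 difference 0.93 ± 0.12, adjusted p = 2.56e-13, limma). Trib1 and Nsmce2, on the other side of Myc, were higher by 0.65 and 0.63, and Ahi1, the neighbour of Myb opposite Hbs1l, by 0.45. Cyrib, which lies between the gasdermin genes and Asap1, was lower at −0.34 with 14 regions in each D8 list and 7 ± 1 on D4, and Hbs1l did not pass (0.21 ± 0.16, adjusted p = 0.310, limma). Gsdmc, Gsdmc2 and Gsdmc3, genes of skin and gut epithelium near Myc, had no region in any list. On D21 against D8 none of the 8 passed (limma), and 2 had an unadjusted p under 0.05, beside 5.41% of all genes.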
